A study of Mus musculus with 8 samples.

Results

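The 10 genes described here make up the class II antigen presentation pathway of the mouse, and they were taken by symbol from the 16130 genes in the deposited count table, where all 10 were found. They are the chain genes H2-Aa, H2-Ab1 and H2-Eb1, the invariant chain gene Cd74, the peptide loading genes H2-DMa, H2-DMb1, H2-DMb2, H2-Oa and H2-Ob, and the transactivator Ciita. RNA came from the distal colon of mice labelled Tcf4Het/+ ApcMin/+, so every library carries both alleles. ApcMin is a truncating allele of the tumour suppressor Apc whose carriers grow intestinal adenomas. The 4 EE libraries are from animals in enriched housing and the 4 NE libraries from animals in conventional, non-enriched housing, each for 4 months. The labels give neither the strain background nor the age, and they do not say whether each library is a separate animal, so p-values measure the spread between these libraries only.

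MHC class II molecules are pairs of an alpha and a beta chain that show peptides from engulfed material to CD4 T cells. Dendritic cells, B cells and macrophages carry them at all times, and gut epithelium can gain them under interferon gamma. The invariant chain, Cd74, holds the new pair in the endoplasmic reticulum and guides it to endosomes, where proteases trim it. H2-DM then exchanges its last fragment for peptide, and H2-DO restrains H2-DM, mostly in B cells. Ciita switches most of the other genes on from a shared promoter module.

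The counts assigned to genes in a library summed to 4735764 to 6266902 in EE and 6120185 to 10586851 in NE. EE 4 stood apart from the other 7 libraries. The summed level of 8 smooth muscle markers was 645 CPM (counts scaled to the size of the library) in EE 4, against 2234 to 4255 CPM in the other EE libraries and 3394 to 5482 CPM in NE. The 9 epithelial markers summed to 7260 to 11197 CPM in EE and 8442 to 11465 CPM in NE, and none of them was at 0 in any library. All 10 class II genes had their lowest value of the 8 libraries in EE 4. In bulk tissue, fewer cells of a type and less RNA per cell cannot be told apart. The headers do not name the numerator of the authors' fold changes, whose sign was opposite to that of EE minus NE for 97.8% of genes tested. EE and NE therefore mean the columns so named, and exchanged names would turn every direction given here round.

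All 9 members that passed the filter on low counts stood lower in EE than in NE, with a median log2 fold change of −0.51 (EE minus NE), while the median of all genes was 0.00. Negative fold changes made up 49.7% of the 14311 genes tested. In the quasi-likelihood test of edgeR 0 of the 9 members passed an adjusted p of 0.05 (Benjamini-Hochberg, over all genes tested), and 0% of all genes did. At an unadjusted p under 0.05 there was 1 member, Ciita, and 3.75% of all genes were lower in EE at that level. Ciita had an unadjusted edgeR p of 0.0564 without EE 4, 0.0919 without NE 3 and 0.0546 without NE 4. Limma-voom also called 0 members. H2-Oa did not pass the filter in the fit of all 8 libraries, and DESeq2, which tested it, had 0 of 10. Without EE 4 all 10 members were tested, 8 of them were lower in EE against 49.2% of all genes, and the median over all 10 was −0.19. The 2 that were then higher in EE were H2-DMb2 and H2-Oa.

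**Figure D1:**
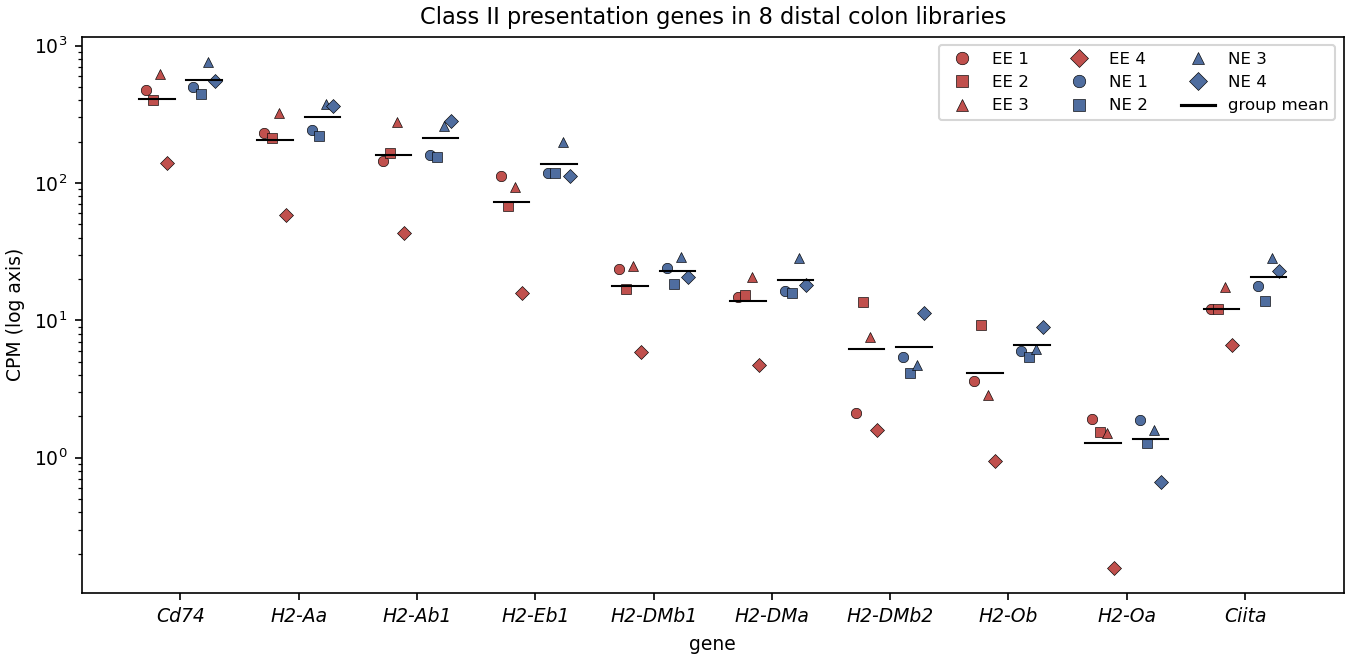
Level of each of the 10 genes in every library, in CPM on a log axis, with EE (red) left of NE (blue), the library number shown by the marker and the group mean by a line. EE 4 (red diamonds) lies lowest for all 10 genes, with H2-Aa at 58.2 CPM there against 213 to 378 CPM in the other 7 libraries.

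Of the 10 members 8 lie together in the class II region of chromosome 17, within 224 kb between 34092340 and 34316674 on GRCm38 (the same build as mm10, GENCODE M21). The class II promoter module holds an X box, bound by the RFX complex, and a Y box, bound by NF-Y, on which Ciita docks without touching DNA. Promoter windows (250 bases before to 50 after a start site) from RefSeq on GRCm38.p6 were matched by symbol for 7 members, 8 windows in all, since H2-DMa has 2 start sites. H2-Ab1, Cd74 and Ciita are not among them. Of these, 4 windows are shown from 110 to 39 bases before the start site, because 2 chain genes and both H2-DO genes hold different sets of matches there. Capitals mark matches on the gene's own strand to the Y box core ATTGG, its longer form CTGATTGG, which contains the core, and the X box core CCNAGNNAC.
H2-Aa (chr17:34287862-34287933, minus strand): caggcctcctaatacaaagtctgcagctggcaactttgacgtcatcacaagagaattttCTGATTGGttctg
H2-Eb1 (chr17:34305757-34305828, plus strand): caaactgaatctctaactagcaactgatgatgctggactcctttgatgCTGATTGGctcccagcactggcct
H2-Oa (chr17:34092269-34092340, plus strand): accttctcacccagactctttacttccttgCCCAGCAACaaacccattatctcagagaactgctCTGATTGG
H2-Ob (chr17:34238795-34238866, plus strand): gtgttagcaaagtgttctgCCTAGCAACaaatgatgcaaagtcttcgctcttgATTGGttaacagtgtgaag

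Searched on both strands over the whole windows, the Y box core was in 7 of the 8 member windows and in 37.4% of all 32851 windows. The longer form was in 3 of 8, namely H2-Aa, H2-Eb1 and H2-Oa, and in 4.10% of all windows. The X box core was in 5 of 8 and in 17.3% of all. In H2-DMb1 and H2-Oa 28 bases lay between the X box core and the Y box core downstream of it, and in H2-Ob 25 bases. In H2-Aa and H2-DMb2 the nearest exact match to the X box core on the gene's strand lay farther up, 123 and 93 bases before the Y box core. Sequences that depart from these letters, such as actagcaac in H2-Eb1 and gctggcaac in H2-Aa, were not counted. A missing or distant match therefore does not show that an X box is absent or displaced. These are matches of letters, not bound sites.

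**Figure D2:**
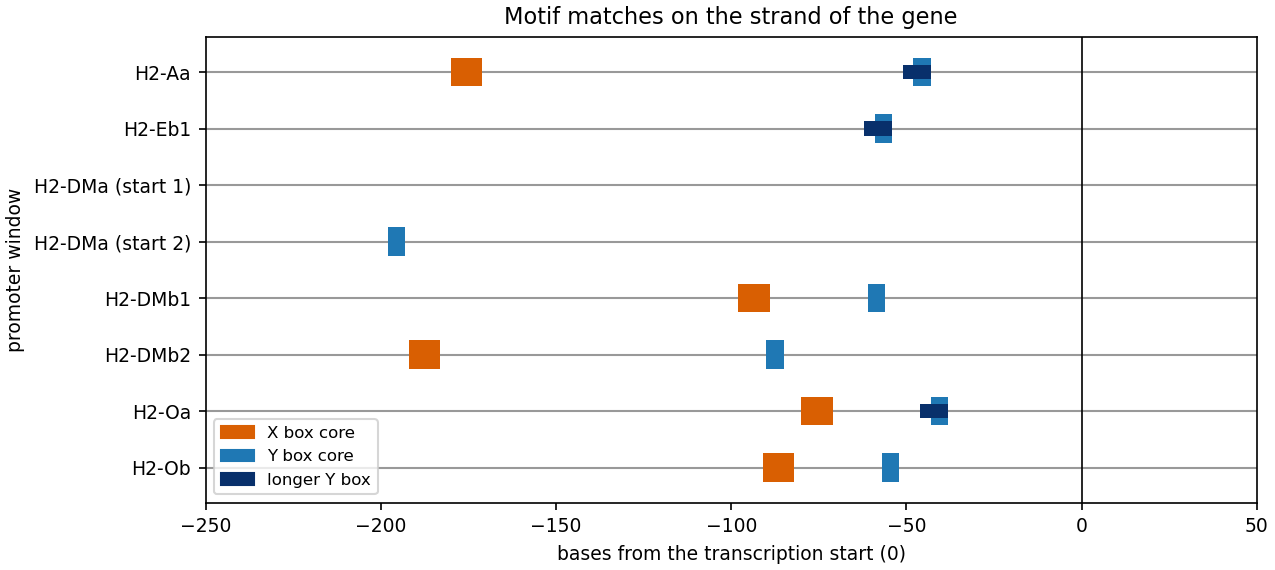
Position of each match on the gene's own strand in the 8 RefSeq promoter windows, in bases from the first transcribed base (0), one row per window. The Y box core starts between −61 and −43 in H2-Aa, H2-Eb1, H2-DMb1, H2-Oa and H2-Ob, at −90 in H2-DMb2 and at −198 at the second start of H2-DMa.

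Cd74, on chromosome 18 (60803848 to 60812652, plus strand), was the most abundant member. Its values were 476, 401, 622 and 139 CPM in EE 1 to EE 4, against 497, 447, 760.3 and 556 CPM in NE 1 to NE 4. The groups overlapped, with EE 3 above 3 of the 4 NE libraries and EE 4 far below all others. The log2 fold change was −0.47 (edgeR adjusted p = 0.634, SE 0.37), and −0.17 (SE 0.22) without EE 4. Levels per kilobase of exons divide by all annotated exons of a gene, used here or not, so they compare genes only roughly. On that measure Cd74 averaged 244 ± 120.5 CPM in EE and 337 ± 81.9 CPM in NE (SD, n = 4 each), above every chain gene. The microRNA gene Mir5107, with 87 counts over all libraries, overlaps it on the same strand.

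The alpha and beta chains of the I-A molecule, H2-Aa and H2-Ab1, varied more in level between libraries than in their ratio. The largest gap in level was at EE 4. H2-Aa (34282744 to 34287823, minus strand) was at 230.0, 213, 322 and 58.2 CPM in EE 1 to EE 4, against 243, 221, 378 and 363 CPM in NE 1 to NE 4. H2-Ab1 (34257689 to 34269419, plus strand) was at 145, 166, 280.4 and 43.1 CPM in EE, against 160.1, 154, 258 and 283 CPM in NE. EE 4 was far below all others for both genes, and the groups overlapped, with EE 1 and EE 3 inside the NE range for H2-Aa, and EE 2 and EE 3 for H2-Ab1. Their log2 fold changes were −0.55 (edgeR adjusted p = 0.613, SE 0.41) and −0.43 (adjusted p = 0.709, SE 0.44), and −0.23 and −0.10 without EE 4. Over the 8 libraries the level of H2-Aa spanned 6.50-fold and that of H2-Ab1 6.56-fold, with EE 4 the lowest for both. Without EE 4 the levels ran from 213 to 378 CPM for H2-Aa and from 145 to 283 CPM for H2-Ab1. The ratio of H2-Ab1 to H2-Aa counts within a library ran from 0.631 in EE 1 to 0.871 in EE 3, a span of 1.38-fold. As a share of H2-Ab1 plus H2-Aa counts, H2-Ab1 was at 38.7, 43.8, 46.6 and 42.6% in EE 1 to EE 4, against 39.7, 41.0, 40.6 and 43.8% in NE 1 to NE 4. EE 2, EE 3, EE 4 and NE 4 had the 4 highest shares, and the exact 95% binomial intervals of EE 1 (36.4 to 41.0%) and EE 3 (45.0 to 48.1%) did not overlap. The interval of EE 4 (38.7 to 46.5%) overlapped those of EE 1, NE 1, NE 2 and NE 3. Those of EE 2 (41.6 to 46.0%) and NE 4 (42.3 to 45.4%) overlapped that of NE 2 (39.1 to 42.9%). The EE 2 interval also overlapped that of NE 3 (39.4 to 41.8%). Per kilobase the levels of H2-Aa were 54.2 ± 28.8 CPM in EE and 79.3 ± 21.3 CPM in NE. Those of H2-Ab1 were 61.8 ± 37.9 CPM in EE and 83.2 ± 25.9 CPM in NE. Both genes overlap within this spread between libraries, which does not use that they were measured in the same libraries.

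H2-Eb1, the beta chain of the second classical molecule, I-E (34305867 to 34316674, plus strand), had the lowest fold change of the members. It was at 112, 68.1, 92.9 and 15.9 CPM in EE 1 to EE 4, against 117, 118, 199.7 and 113 CPM in NE 1 to NE 4. It was the 1 member of 9 whose groups did not overlap, by the narrow margin between 111.9 CPM in EE 1 and 113.04 CPM in NE 4. Of all genes tested, 2.02% had every EE value below every NE value. The log2 fold change was −0.93 (edgeR adjusted p = 0.524, SE 0.45), and −0.59 (adjusted p = 0.722, SE 0.24) without EE 4. In the authors' deposited table H2-Eb1 had a log2 fold change of 1.06 with an FDR of 0.000101, in the direction of higher NE. It was the only member under 0.05 there, a level that 2.39% of the 16130 genes in that table reached. The other members had FDR values between 0.0718 (Ciita) and 1 (H2-DMb2) in the authors' deposited table, and all 10 had positive fold changes.

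**Figure D3:**
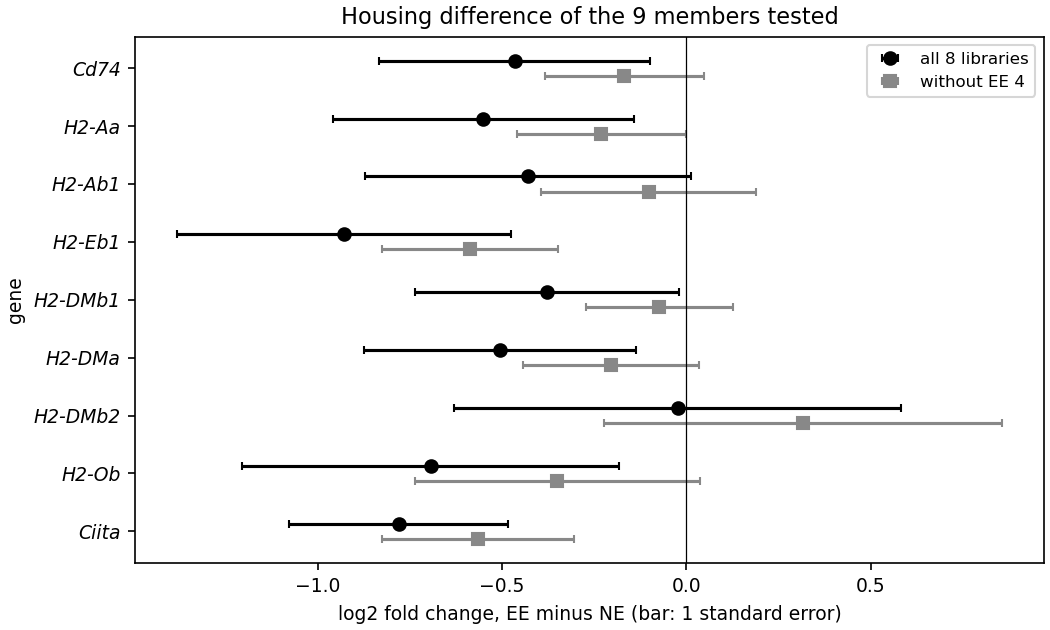
Log2 fold change, EE minus NE, of the 9 members tested with all 8 libraries (circles) and without EE 4 (squares), with 1 standard error as the bar. H2-Eb1 lies lowest at −0.93 and at −0.59 without EE 4, while H2-DMb2 moves across 0, with −0.02 and 0.32.

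The ratio of H2-Eb1 to H2-Aa differed more between libraries than that of H2-Ab1 to H2-Aa, with a span of 1.96-fold. As a share of H2-Eb1 plus H2-Aa counts it was 32.7% in EE 1 (exact 95% binomial interval 30.4 to 35.1%). EE 2 had 24.2% (22.1 to 26.5%), EE 3 had 22.4% (20.9 to 24.0%) and EE 4 had 21.4% (17.8 to 25.4%). In NE it was 32.5% in NE 1 (30.6 to 34.5%), 34.8% in NE 2 (32.9 to 36.8%), 34.6% in NE 3 (33.4 to 35.8%) and 23.7% in NE 4 (22.2 to 25.3%). EE 1 therefore lay with NE 1, NE 2 and NE 3, and NE 4 lay with EE 2, EE 3 and EE 4, with no interval of either set touching the other. These intervals cover counting error only, and a share of counts within a library does not depend on its scaling. The ratio of H2-Eb1 to H2-Aa counts averaged 0.342 ± 0.0984 in EE and 0.464 ± 0.104 in NE (SD, n = 4 each).

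The same 4 libraries carried reads of H2-Ea-ps, the gene of the I-E alpha chain that pairs with H2-Eb1 (34341959 to 34344645, minus strand). GENCODE lists it as a polymorphic pseudogene, since some mouse strains have a silent allele and others an active one. It had 0, 13, 12 and 2 counts in EE 1 to EE 4, against 0, 0, 0 and 24 counts in NE 1 to NE 4. As a share of the counts of H2-Ea-ps plus H2-Aa, this was 1.15% for EE 2, 0.560% for EE 3, 0.542% for EE 4 and 1.08% for NE 4. Taken as 3 counts, the limit that a count of 0 allows was a share of up to 0.277% in EE 1, and up to 0.195%, 0.195% and 0.0744% in NE 1, NE 2 and NE 3. EE 4, with 2 counts, had an exact 95% interval of 0.0657 to 1.94%, so a difference between EE 4 and the libraries at 0 was not detectable at this depth. Gm10263, chosen after its values were seen, had the same division over the libraries, with 3, 340, 300 and 277 counts in EE 1 to EE 4 against 0, 2, 1 and 377 counts in NE 1 to NE 4. Such a division puts 3 EE libraries and 1 NE library on the same side. Its part in the housing difference of H2-Eb1 was not tested.

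**Figure D4:**
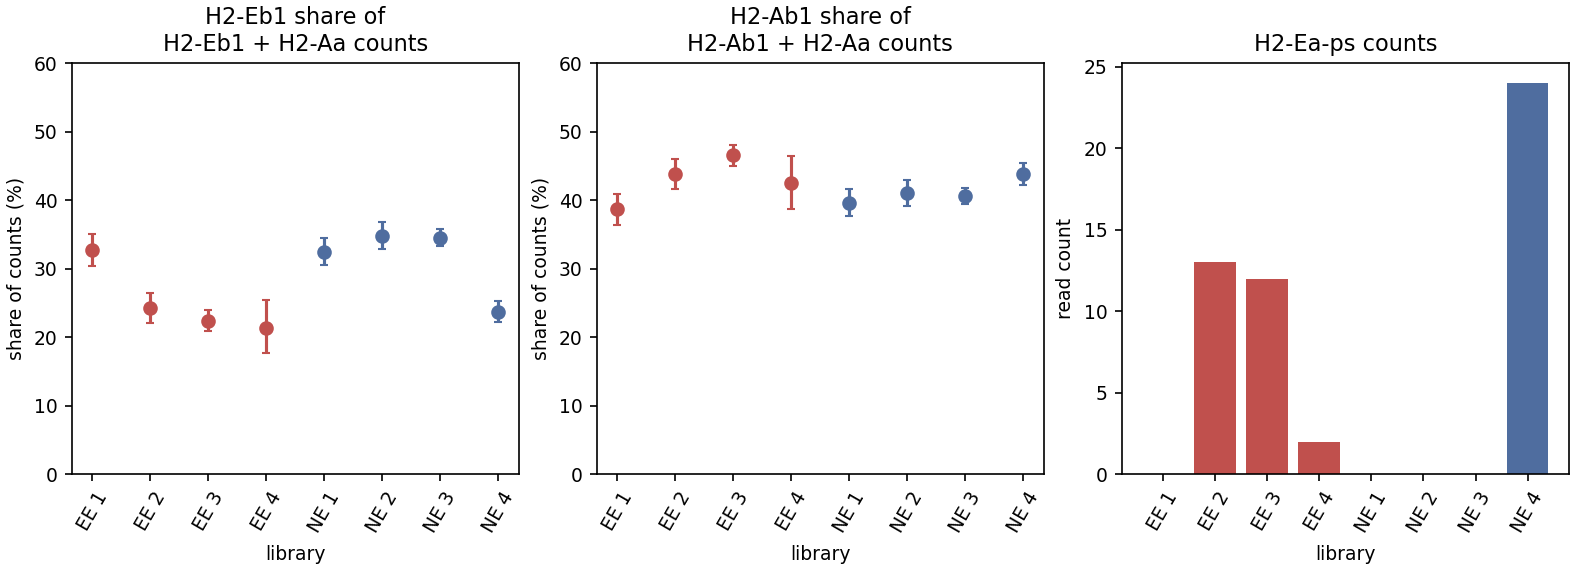
H2-Eb1 and H2-Ab1 as shares of their counts plus those of H2-Aa (percent, with exact 95% binomial intervals) and the counts of H2-Ea-ps, per library, EE in red and NE in blue. The H2-Eb1 share is 21.4 to 24.2% in EE 2, EE 3, EE 4 and NE 4 and 32.5 to 34.8% in the other 4, whose H2-Ea-ps count is 0. The H2-Ab1 share is 42.6 to 46.6% in EE 2, EE 3, EE 4 and NE 4 and 38.7 to 41.0% in the other 4. The H2-Ab1 intervals of EE 2, EE 4 and NE 4 overlap that of NE 2, and those of EE 2 and EE 4 also overlap that of NE 3.

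A further beta chain gene of the region, H2-Eb2, stood far below H2-Eb1. It had 1.68 ± 1.38 CPM in EE and 2.63 ± 0.530 CPM in NE (SD, n = 4 each), with a log2 fold change of −0.66 (edgeR adjusted p = 0.610, SE 0.48).

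Among the peptide loading genes, the alpha and beta chains of H2-DM were close to each other in count. H2-DMa (34119541 to 34139101, plus strand) was at 14.9, 15.3, 20.9 and 4.76 CPM in EE 1 to EE 4, against 16.3, 15.9, 28.3 and 18.2 CPM in NE 1 to NE 4. H2-DMb1 (34153072 to 34160230, plus strand) was at 23.6, 17.03, 24.8 and 5.87 CPM in EE, against 24.2, 18.3, 28.8 and 20.7 CPM in NE. Brd2, with 10201 counts over all libraries, overlaps H2-DMa on the other strand, so part of the H2-DMa counts may belong to it. EE 1 and EE 2 lay just below the NE libraries for H2-DMa, EE 3 lay among them, and for H2-DMb1 both EE 1 and EE 3 were inside the NE range. The log2 fold changes were −0.51 (edgeR adjusted p = 0.611, SE 0.37) for H2-DMa and −0.38 (adjusted p = 0.686, SE 0.36) for H2-DMb1. Without EE 4 they were −0.21 and −0.07. The ratio of H2-DMa to H2-DMb1 counts ran from 0.631 to 0.984 over the 8 libraries, with means of 0.795 ± 0.116 in EE and 0.851 ± 0.130 in NE.

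H2-DMb2, a second beta chain gene of H2-DM next to H2-DMb1 (34143307 to 34151555, plus strand), had the fold change nearest to 0 of the 9 members tested. It was at 2.12, 13.6, 7.55 and 1.59 CPM in EE 1 to EE 4, against 5.37, 4.16, 4.69 and 11.3 CPM in NE 1 to NE 4. EE 2 and NE 4 were the highest. EE 2 lay above every NE library, EE 1 and EE 4 lay below every NE library, and EE 3 lay inside the NE range. The log2 fold change was −0.02 (edgeR adjusted p = 0.993, SE 0.61), and 0.32 (SE 0.54) without EE 4. Its share of H2-DMb1 plus H2-DMb2 counts was 8.26, 44.4, 23.4 and 21.3% in EE 1 to EE 4, against 18.2, 18.5, 14.0 and 35.2% in NE 1 to NE 4. EE 2, EE 3, EE 4 and NE 4, the libraries with H2-Ea-ps counts, had the 4 highest shares. The exact 95% intervals of EE 3 (17.9 to 29.6%) and EE 4 (10.7 to 35.7%) overlapped those of NE 1 (12.9 to 24.5%), NE 2 (12.7 to 25.4%) and NE 3 (10.6 to 18.04%). The EE 4 interval also overlapped that of EE 1 (4.03 to 14.7%). The transcripts of these genes share 369 runs of 50 bases, 22.7% of those of H2-DMb1 and 21.2% of those of H2-DMb2. Reads were 50 bases long, so the authors' counting may have split or dropped reads of the pair, and their individual values are uncertain. Of the 45 pairs of members this was the 1 pair that shared any such run.

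The H2-DO genes had few counts. H2-Ob (34238903 to 34254414, plus strand), the beta chain, was at 3.61, 9.19, 2.87 and 0.951 CPM in EE 1 to EE 4, against 6.0, 5.45, 6.19 and 8.95 CPM in NE 1 to NE 4. EE 2 was the highest of all 8 libraries and the other 3 EE libraries lay below every NE library. The log2 fold change was −0.69 (edgeR adjusted p = 0.612, SE 0.51). It was −0.35 without EE 4 (adjusted p = 0.854) and −1.44 without EE 2 (adjusted p = 0.146). H2-Oa (34092340 to 34095234, plus strand), the alpha chain, had 9, 8, 10 and 1 counts in EE 1 to EE 4, against 12, 9, 17 and 4 counts in NE 1 to NE 4, too few for the filter. With no filter its log2 fold change was −0.13 (edgeR adjusted p = 0.937, SE 0.56). It lies opposite the antisense gene BC051537, and since the sources used here do not say whether counting used the strand, reads of the pair cannot be told apart.

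Ciita, on chromosome 16 (10480059 to 10528418, plus strand), was low but had the smallest p of the members. It was at 12.1, 12.1, 17.5 and 6.66 CPM in EE 1 to EE 4, against 17.8, 13.9, 28.4 and 22.7 CPM in NE 1 to NE 4. EE 1, EE 2 and EE 4 lay below every NE library, and EE 3 lay above NE 2. The log2 fold change was −0.78 (unadjusted p = 0.0249, edgeR adjusted p = 0.520, SE 0.30), and −0.56 (adjusted p = 0.722, SE 0.26) without EE 4. The ratio of Ciita to H2-Aa counts was 0.114 in EE 4 and 0.0526 to 0.0566 in the other EE libraries, against 0.0626 to 0.0752 in NE. In EE 4 H2-Aa was therefore lower, relative to the other libraries, than its transactivator. Dexi, with 558 counts over all libraries, overlaps Ciita on the other strand, so part of the Ciita counts may belong to it.

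Per kilobase of exons Cd74 stood above the 3 classical chains, which ran from 37.1 ± 21.4 CPM (H2-Eb1) to 61.8 ± 37.9 CPM (H2-Ab1) in EE and from 70.5 ± 21.5 to 83.2 ± 25.9 CPM in NE. H2-DMb1 followed with 10.6 ± 5.15 CPM in EE and 13.7 ± 2.70 CPM in NE, then H2-DMa with 4.04 ± 1.94 CPM in EE and 5.71 ± 1.70 CPM in NE, and H2-DMb2 with 3.56 ± 3.21 CPM in EE and 3.65 ± 1.89 CPM in NE. The length used was 1681 bases for H2-DMb1 and 3448 bases for H2-DMa, so their gap per kilobase depends on the annotated exons. Ciita, H2-Ob and H2-Oa were lowest, at 1.27 ± 0.465, 0.772 ± 0.657 and 0.908 ± 0.546 CPM in EE and 2.17 ± 0.658, 1.24 ± 0.291 and 0.967 ± 0.374 CPM in NE. The 3 chains overlap each other within this spread between libraries, as do H2-DMa and H2-DMb2, and H2-Ob and H2-Oa. This spread does not use that the genes were measured in the same libraries, and differences within libraries were not tested. Within libraries the ratio of H2-Eb1 to H2-Ab1 counts, not divided by length, ran from 0.331 to 0.773. The ratio of Cd74 counts to the summed counts of the 3 chains was 0.977, 0.896, 0.895 and 1.19 in EE 1 to EE 4, against 0.953, 0.909, 0.909 and 0.733 in NE 1 to NE 4.

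The genes around the pathway were read from the same fit, where 0 of them passed the adjusted threshold. Of 7 genes for the RFX subunits, NF-Y subunits and Creb1, 5 were higher and 2 lower in EE, with a median log2 fold change of 0.03, and of 0.01 without EE 4. These are the DNA-binding partners of Ciita at class II promoters. Rfx5, the large RFX subunit, was at 16.8 ± 2.59 CPM in EE and 14.4 ± 2.21 CPM in NE (edgeR adjusted p = 0.621), and Rfxank at 16.8 ± 2.68 CPM in EE and 20.1 ± 2.22 CPM in NE (adjusted p = 0.569).

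In the interferon gamma axis, which induces Ciita, 5 of 7 genes tested were lower in EE, with a median of −0.14, and of −0.05 without EE 4. Irf1, a transcription factor of that response, was at 143 ± 22.2 CPM in EE and 184 ± 8.47 CPM in NE, and the receptor subunit Ifngr1 at 268 ± 51.7 CPM in EE and 334 ± 9.34 CPM in NE. In both genes every EE value lay below every NE value, which 2.02% of all genes tested also had. The edgeR adjusted p was 0.520 for each gene. Ifng itself was not analysed here.

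Of the 8 genes that process the invariant chain and endosomal antigen, 5 were lower in EE (median −0.14, and −0.04 without EE 4). Ctss, the protease that finishes invariant chain cleavage, was at 284 ± 92.3 CPM in EE and 379 ± 30.9 CPM in NE, a log2 fold change of −0.42 (edgeR adjusted p = 0.540, SE 0.23), and of −0.22 (SE 0.14) without EE 4. The thiol reductase Ifi30 was at 68.6 ± 11.8 CPM in EE and 80.7 ± 9.50 CPM in NE. Among 7 genes of class II turnover and costimulation 6 were lower (median −0.22), and 4 without EE 4 (median −0.03), with the costimulatory ligand Icosl at 12.2 ± 1.92 CPM in EE and 17.4 ± 2.14 CPM in NE (adjusted p = 0.520). March1, the ubiquitin ligase that removes class II from the surface, was at 9.07 ± 3.77 CPM in EE and 10.6 ± 1.73 CPM in NE. Cd4, the co-receptor that binds class II, was at 2.52 ± 1.33 CPM in EE and 4.32 ± 0.456 CPM in NE (adjusted p = 0.520).

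Class I presentation, which serves CD8 T cells and is found on nearly all cells, had the same sign with smaller values. All 9 genes were lower in EE with a median of −0.21, and 7 of 9 without EE 4 with a median of −0.07. The class I heavy chain H2-K1 was at 482 ± 127 CPM in EE and 619 ± 127 CPM in NE (edgeR adjusted p = 0.573), and the light chain B2m at 583 ± 233 CPM in EE and 757 ± 93.3 CPM in NE (adjusted p = 0.612). The difference between the class I and class II genes was not tested.

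Most markers of the cells that carry class II had lower values in EE too. Of 10 B cell genes tested 9 were lower (median −0.77, and −0.44 without EE 4), of 12 macrophage genes 12 (median −0.29, and −0.04 without EE 4), and of 6 dendritic cell genes 4 (median −0.21, and −0.02 over the 7 tested without EE 4). The other 6 of 12 dendritic cell genes and 1 of 11 B cell genes had too few counts. B cell markers summed to 20.2, 63.2, 32.6 and 10.9 CPM in EE 1 to EE 4, against 55.4, 32.2, 45.9 and 70.1 CPM in NE 1 to NE 4. EE 2 and NE 4, the highest EE and NE libraries in this sum, were also the highest of their groups for H2-Ob and H2-DMb2. Macrophage markers summed to 411, 600.2, 1214 and 321 CPM in EE, against 638, 639, 654 and 961 CPM in NE, and dendritic cell markers to 95.3, 123, 133 and 85.6 CPM in EE, against 136, 128, 133 and 129.6 CPM in NE. In EE 4 the B cell marker Pax5, named for this value, was at 0, and no marker of these 3 lists was at 0 in any other library. Outside these lists, 7 of 9 T cell genes (median −0.33), 5 of 7 plasma cell genes (−0.56), 8 of 8 smooth muscle genes (−0.78) and 7 of 9 epithelial genes (−0.15) were lower in EE. Without EE 4 these medians were −0.15 for T cell, −0.27 for plasma cell, −0.47 for smooth muscle and −0.10 for epithelial genes. The part of these cells in the class II values was not tested.

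**Figure D5:**
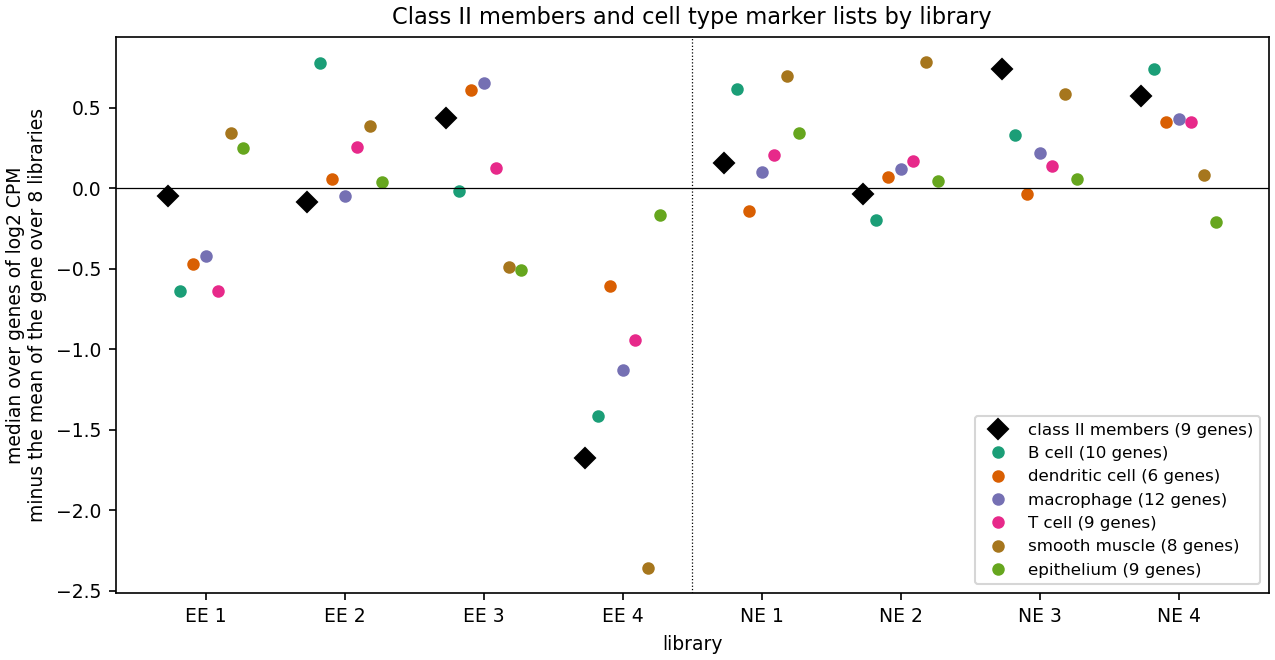
For each library, the median over the genes of a list of log2 CPM minus the mean of that gene over the 8 libraries, for the 9 class II members tested (black diamonds) and 6 cell type marker lists (circles). In EE 4 the class II median is −1.67 with dendritic cell, B cell, macrophage, T cell and smooth muscle lists also low. The dendritic cell list is at −0.61 in EE 4 and the epithelial list at −0.17. In NE 3 the class II median is at its highest, 0.74. There smooth muscle markers are at 0.59, B cell at 0.33, macrophage at 0.22, T cell at 0.14, epithelial at 0.06 and dendritic cell markers at −0.03.

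Relative to these marker sums the members did not hold one ratio. Summed over the 10 members the level was 1021, 917, 1393 and 277 CPM in EE 1 to EE 4, against 1089, 999, 1695 and 1398 CPM in NE 1 to NE 4. Divided by the dendritic cell sum this gave 10.7, 7.45, 10.4 and 3.23 in EE, against 7.98, 7.79, 12.8 and 10.8 in NE. Divided by the B cell sum it gave 50.6, 14.5, 42.7 and 25.3 in EE, against 19.6, 31.0, 36.9 and 19.9 in NE. Divided by the macrophage sum it gave 2.48, 1.53, 1.15 and 0.862 in EE, against 1.71, 1.56, 2.59 and 1.46 in NE, and divided by the epithelial sum 0.0328 in EE 4 and 0.0912 to 0.192 in the other 7 libraries. EE 4 was lowest for the dendritic cell, macrophage and epithelial ratios and inside the range of the others for the B cell ratio. Irf8 alone held 54.2 of 85.6 CPM of the dendritic cell sum in EE 4, 68.6 of 133 CPM in EE 3 and 99.9 of 136 CPM in NE 1. The dendritic cell ratio therefore rests largely on Irf8. NE 3, the deepest library, had the highest summed level of the members.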

How the data were processed

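Ribosomal RNA-depleted, stranded libraries were read as single ends of 50 bases, per the labels' protocols. The submitters' processing notes name Novoalign 2.08.01, DESeq 1.14.0 and build mm10; the annotation, the counting program and its use of strand are not given in the sources read. The authors deposited raw read counts per gene (whole numbers), with a log2 fold change and an FDR (adjusted p-value) from their own comparison, per the file headers. Members and gene lists were chosen with earlier results of these data known.

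The test used edgeR 4.0.16 (R 4.3.3): filterByExpr, TMM scaling, robust quasi-likelihood test of EE against NE without covariates, Benjamini-Hochberg adjustment over the 14311 genes tested, threshold 0.05. The standard error is the fold change divided by the square root of F. CPM divide a count by the TMM-scaled total of its library, with a prior count of 2 on the log2 scale. Gene lengths (the union of all annotated exons) and positions are from GENCODE M21, which held 15948 identifiers of the table. Named genes were all members, H2-Ea-ps and H2-Eb2, at most 4 genes per other list, by smallest p, and the 10 genes of at least 5 CPM whose log2 CPM correlated most with the members. Gm10263 and Pax5 were chosen after their values were seen. Protein identities, also planned, were not computed. March1 and March8, written as dates in the table, were matched by identifier. Scripts were tested on simulated data. Alternatives were DESeq2 1.42.0, limma-voom (limma 3.58.1), RLE and upper-quartile scaling, no filter, a filter of 1 CPM in 4 libraries, the replicate number as a block, a threshold of 0.1, and each library left out.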

Additional observations from a re-analysis of the deposited data

Results flagged for a closer look

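Values were set against the other 3 libraries of their group, and a value was listed when its gap to the nearest of them exceeded Dixon's limit for 4 values. Of 42 groups of 4 values examined, 8 were listed, and chance lists about 1 in 20 of separate groups of normally distributed values. The groups here share genes and libraries, and some hold counts of 0. The 8 listed can therefore not be set against that rate. H2-Eb1 was at 199.7 CPM in NE 3, against 113 to 118 CPM in the other NE libraries. The next values concern NE 4. H2-DMb2 was at 11.3 CPM there, against 4.16 to 5.37 CPM in the other NE libraries, and its ratio to H2-DMb1 counts was 0.544, against 0.163 to 0.227. H2-Ea-ps was at 3.98 CPM in NE 4, a ratio of 0.0110 to H2-Aa counts, and had 0 counts in the other NE libraries. The ratio of H2-Eb1 to H2-Ab1 counts was 0.399 in NE 4, against 0.733 to 0.773 in the others. In EE 4 the ratio of Ciita to H2-Aa counts was 0.114, and 0.0526 to 0.0566 in EE 1, EE 2 and EE 3. In EE 2 the ratio of H2-Ob to H2-DMb1 counts was 0.539, against 0.116 to 0.162.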

How the results depend on the processing

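The count of members past the threshold was 0 under every alternative run. Their lowest adjusted p was 0.407 with DESeq2, 0.451 with limma-voom and between 0.146 and 0.843 with 1 library left out. The count of all genes past the threshold was 16 with DESeq2, 0 to 1 with 1 library left out (1 without EE 2), and 0 under the others. At an unadjusted p under 0.05 edgeR had 1357 of all genes, limma-voom 1566 and DESeq2 1574. Among the members that count was 1 with edgeR and DESeq2, 2 with limma-voom and with the replicate block, and 0 to 2 with 1 library left out (0 without NE 3 and without NE 4). The median log2 fold change of the 9 members ran from −0.78 without EE 3 to −0.21 without EE 4, and was −0.32 without NE 3. Of 135 member values under alternatives 132 kept their sign. The others were H2-DMb2, at 0.25 without EE 1, 0.32 without EE 4 and 0.39 without NE 4, in a range from −0.72 (without EE 2). The cause was not tested. With 1 library left out H2-Eb1 ran from −1.22 to −0.59, Ciita from −1.02 to −0.56 and H2-Ob from −1.44 to −0.35. With the replicate number as a block 0 genes and 0 members passed, and the median of the members was −0.60. Same-numbered libraries had correlations of their deviations from the group means of 0.25, 0.01, −0.18 and −0.04, and 1 of 4 EE libraries correlated best with its own number, so the numbers are not taken to pair the samples. Depth limits H2-Oa, H2-Eb2 and H2-Ea-ps most: a count of 0 allows up to 0.282 to 0.637 CPM.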

Other observations

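Genes outside the pathway were ranked over the 8 libraries by the Pearson correlation of their log2 CPM with the mean standardised level of the 9 members. Among 12089 genes of at least 5 CPM the closest was Fli1 (r = 0.980), a transcription factor of blood and endothelial cells. The next were P2ry14 (0.980), a receptor for UDP-sugars, and the collagen-binding integrin subunit Itga1 (0.974). They were followed by the lipid transfer protein Pltp (0.965), the receptor phosphatase Ptprm (0.965), the gelatinase Mmp2 (0.965), the antibody constant region Ighg2c (0.965), the protease inhibitor Serpinb6b (0.964), the complement protease C1s1 (0.964) and Rcn3 (0.963). All 8 points include EE 4, where the mean standardised level of the members was −2.11, against −0.15 to 0.84 in the other 7 libraries. Without EE 4 the closest 10 were led by Taf4 (r = 0.944) and Map3k14 (0.942), and 0 genes stood in both lists. These correlations were chosen for their size among many and describe these libraries only.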
